A study of Mus musculus with 12 samples.

Results

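The STAT genes encode the transcription factors that carry cytokine signals from the cell surface to the nucleus, and 6 of them, Stat2, Stat3, Stat4, Stat5a, Stat5b and Stat6, were followed here through a gene count table of 55401 mouse genes. They were taken by symbol, and each matched a single Ensembl identifier. All 6 were abundant enough to be tested, among 21239 genes tested in all. RNA had been sequenced from Th17 cells, the T helper cells that make IL-17, which had been differentiated from naive T cells of wild-type mouse lymph nodes. Cells received no inhibitor (None), Kira8, Stattic, or both compounds (Kira8+Stattic) for 4 h, in 3 libraries each. Kira8 attenuates the RNase activity of IRE1alpha (gene Ern1), which senses unfolded proteins in the endoplasmic reticulum, and Stattic inhibits STAT3 protein. Doses, the solvent, the cytokines in the culture, and whether replicates came from separate mice or cultures are not given in the labels, so the spread behind each p-value is that among these libraries and may be technical.

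Kira8 replicate 2 and Stattic replicate 2 stood apart from the other 10 libraries. They held 19.8 and 9.3 M counts against 51.7 to 85.9 M, mitochondrial transcripts took 61.5% and 10.7% of their counts against 3.38% to 5.22%, and their rank correlation with the 10 across 21239 genes was 0.53 to 0.57 against 0.89 to 0.98. These 21239 genes were those that passed the filter in the 10 libraries themselves. On depth, mitochondrial share and correlation, results are given from the 10 libraries, and beside them from all 12. In the 10, None and Kira8+Stattic have n = 3 and the single compounds n = 2. The 6 STAT genes together gave 67.9 and 123 CPM (counts per M counts of the library) in Kira8 replicate 2 and Stattic replicate 2. They gave 858 to 1907 CPM in the 10. None of the 9 listed Th17 markers was at 0 throughout a group, though Il22 was only 0.0172 ± 0.0298 CPM (SD) with both compounds. Cd4, the helper T cell coreceptor, was 383 ± 29.1 CPM in None. Il17a varied widely in None, at 718 ± 600 CPM, against 152 ± 4.18 with Kira8, 150 ± 21.9 with Stattic and 162 ± 18 with both.

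A STAT protein waits in the cytoplasm, is phosphorylated on a tyrosine by a JAK kinase at an activated cytokine receptor, pairs through its SH2 domain and enters the nucleus to bind DNA. STAT3 answers IL-6, IL-21 and IL-23 and is required for Th17 differentiation. STAT5A and STAT5B answer IL-2 and IL-7 and oppose the Th17 program, STAT4 answers IL-12 and IL-23, STAT6 answers IL-4, and STAT2 joins IRF9 in the complex formed after type I interferon. Stattic acts on the STAT3 protein, and transcript counts do not measure how far the protein was inhibited. Whether that inhibition led to the changes in STAT transcripts was not tested.

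In the 10 libraries the 6 transcripts fell into unlike patterns. Stat3 was higher with either compound and with both. Stat5a rose 1.85-fold with Kira8 and fell 2.14-fold with Stattic, and with both compounds it sat at the Stattic level. Stat4 rose most with Kira8, 2.48-fold, and with both compounds it was 1.83-fold below its level with Kira8 alone. In the fit of all 12 libraries no member was called in any comparison by edgeR.

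Stat5a and Stat5b are near copies. Their longest coding sequences in GENCODE M21 were 90.7% identical over 2294 aligned bases, whereas the other pairs of members were 58.3% to 65.3% identical. They shared an unbroken identical run of 324 coding bases, and 14.7% of the 50-base words of Stat5a transcripts also occurred in Stat5b, where they made up 11.1%. No other pair of members shared a 50-base word. The authors' treatment of reads that fit both genes is not given in the sources used here. The split between Stat5a and Stat5b is uncertain in such stretches. The 60 coding bases in which they differ most, 19 differences in capitals at coding bases 85 to 144 of each, show a stretch whose reads can be told apart.
Stat5a: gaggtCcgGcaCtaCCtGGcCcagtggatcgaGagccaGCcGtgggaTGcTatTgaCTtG
Stat5b: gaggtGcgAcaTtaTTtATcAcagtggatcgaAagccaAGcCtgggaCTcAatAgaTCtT

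The genes lie on 3 chromosomes of the mouse genome (mm10). Stat5b (chromosome 11, 100780731 to 100850724, minus strand), Stat5a (100859351 to 100885169, plus strand) and Stat3 (100885098 to 100939540, minus strand) follow each other on chromosome 11. Stat6 (127642986 to 127660957) and Stat2 (128270559 to 128292849) are on the plus strand of chromosome 10, and Stat4 (51987148 to 52107189) is on the plus strand of chromosome 1. Each value below is a count for the whole gene, so isoforms such as the long and short forms of STAT3 are not separated. The sources used here do not say whether reads in introns were counted. The 3′ ends of Stat5a and Stat3 overlap by 72 bases on opposite strands, and those of Stat6 and Nab2 by 40 bases. Whether counting used strand is not given in the sources used here.

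Stat3 was examined first because its protein is the target of Stattic and the central STAT of Th17 cells. Stat3 had 311, 339 and 369 CPM in the None libraries (scaled by TMM, edgeR's trimmed mean of M-values), and 486 and 467 CPM with Kira8. Stattic libraries had 538 and 496 CPM, and Kira8+Stattic libraries 560, 552 and 471 CPM. All 7 libraries with an inhibitor were above all 3 without. Against None, Stat3 changed by 0.49 ± 0.15 (log2 change ± standard error) with Kira8, 0.60 ± 0.15 with Stattic and 0.63 ± 0.14 with both, with Benjamini-Hochberg adjusted p = 0.0409, 0.00739 and 0.00282 in edgeR's quasi-likelihood test. The inhibitor groups did not pass the test against each other, Stattic against Kira8 included (0.12 ± 0.17, adjusted p = 0.646; Kira8+Stattic against Kira8, 0.15 ± 0.15, adjusted p = 0.504). The Kira8 call was fragile, ending without any 1 of 8 of the 10 libraries (adjusted p 0.052 to 0.239) and holding only without None replicate 3 or Kira8+Stattic replicate 3. The Stattic call ended without Stattic replicate 1 (adjusted p = 0.0593).

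Stat4, which carries IL-12 and IL-23 signals, varied most among the None libraries relative to its mean, at 55.6, 80 and 45.6 CPM (coefficient of variation 29.3%). Kira8 libraries stood well above at 160 and 140 CPM. Stattic libraries had 105 and 85.5 CPM and Kira8+Stattic libraries 80.4, 90.3 and 74.8 CPM, so that the combination overlapped None in its range. Stat4 rose by 1.31 ± 0.21 with Kira8 (adjusted p = 0.00141) and by 0.66 ± 0.21 with Stattic (adjusted p = 0.0291). With both compounds the change was 0.44 ± 0.19 and missed the threshold (adjusted p = 0.0919). The rise with Kira8 was called without any single library (adjusted p 0.000442 to 0.0201). The rise with Stattic ended without None replicate 1 (0.0574), None replicate 3 (0.0879), Stattic replicate 1 (0.195) or Kira8+Stattic replicate 1 (0.0522), while without None replicate 2 the combination was called (0.69, adjusted p = 0.00715). An annotated transcript on the same strand, Gm28177, overlaps Stat4, with 1.04% as many counts.

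Stat5a had the largest falls of any member and also rose with Kira8. Stat5a had 194, 256 and 225 CPM in None and 386 and 446 CPM with Kira8. Stattic libraries had 107 and 103 CPM, and Kira8+Stattic libraries 118, 95.7 and 91 CPM. The 5 libraries with Stattic formed a single low band, the None libraries a middle one and the Kira8 libraries a high one. Stat5a rose by 0.89 ± 0.17 with Kira8 (adjusted p = 0.00359) and fell by 1.10 ± 0.18 with Stattic (-1.10, adjusted p = 0.000504) and by 1.15 ± 0.16 with both (-1.15, adjusted p = 0.000118). Between Kira8 and Kira8+Stattic the difference was 4.10-fold (-2.03 ± 0.17, adjusted p = 1.65e-05), the largest change of any member. The Kira8 call ended without Kira8 replicate 3 (0.78, adjusted p = 0.0614), and both falls against None were called without any single library of the 10.

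Stat5b followed the same order with smaller steps. It had 214, 211 and 263 CPM in None, 365 and 348 CPM with Kira8, 207 and 166 CPM with Stattic and 195, 157 and 138 CPM with both. The highest Stattic library lay just under the lowest None library. Stat5b rose by 0.64 ± 0.18 with Kira8 (adjusted p = 0.0292), was at -0.30 ± 0.19 with Stattic (adjusted p = 0.23) and fell with both (-0.49 ± 0.17, adjusted p = 0.0322). Leaving out Kira8 replicate 1 (adjusted p = 0.172), Kira8 replicate 3 (0.133), None replicate 2 (0.0733) or None replicate 1 (0.0554) removed the Kira8 call. The call with both compounds ended without None replicate 3 (0.12), Kira8 replicate 1 (0.0536), Kira8 replicate 3 (0.0533), or Kira8+Stattic replicate 2 (0.103) or 3 (0.137).

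Stat6, the IL-4 factor, had 211, 241 and 217 CPM in None, 293 and 312 CPM with Kira8, 173 and 169 CPM with Stattic, and 176, 157 and 135 CPM with both. Its Kira8 libraries were all above and its Stattic libraries all below None, but by small folds. The changes were 0.44 ± 0.15 with Kira8 (adjusted p = 0.0642) and -0.38 ± 0.16 with Stattic (adjusted p = 0.0707), and neither passed. With both compounds Stat6 fell 1.43-fold (-0.52 ± 0.14, adjusted p = 0.0101), a call that ended without Kira8+Stattic replicate 3 (adjusted p = 0.0542). DESeq2 called both single-compound changes (adjusted p = 0.0163 and 0.0365), and the Stattic change was also called without Kira8+Stattic replicate 1 (adjusted p = 0.0363). Nab2, whose end overlaps that of Stat6, rose by 1.64 ± 0.21 with Stattic (adjusted p = 0.000103), opposite to Stat6.

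Stat2, the partner of IRF9, was the least abundant member per kilobase in every group. It had 63.6, 65.2 and 84.5 CPM in None and 125 and 120 CPM with Kira8. Stattic libraries had 38.9 and 40.4 CPM and Kira8+Stattic libraries 62, 61.2 and 43.6 CPM. Stat2 was the only member in which the Kira8+Stattic libraries all lay above the Stattic libraries. Over all genes tested, 18.9% had no overlap between these groups. It rose by 0.79 ± 0.18 with Kira8 (adjusted p = 0.0104) and fell with Stattic (-0.84 ± 0.19, adjusted p = 0.00423). With both compounds it did not pass (-0.36 ± 0.17, adjusted p = 0.109). Leaving out either Kira8 library removed the Kira8 call (adjusted p = 0.0838 without replicate 1, 0.0689 without replicate 3), while the Stattic call was kept without any single library (adjusted p 0.00277 to 0.0323).

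**Figure D1:**
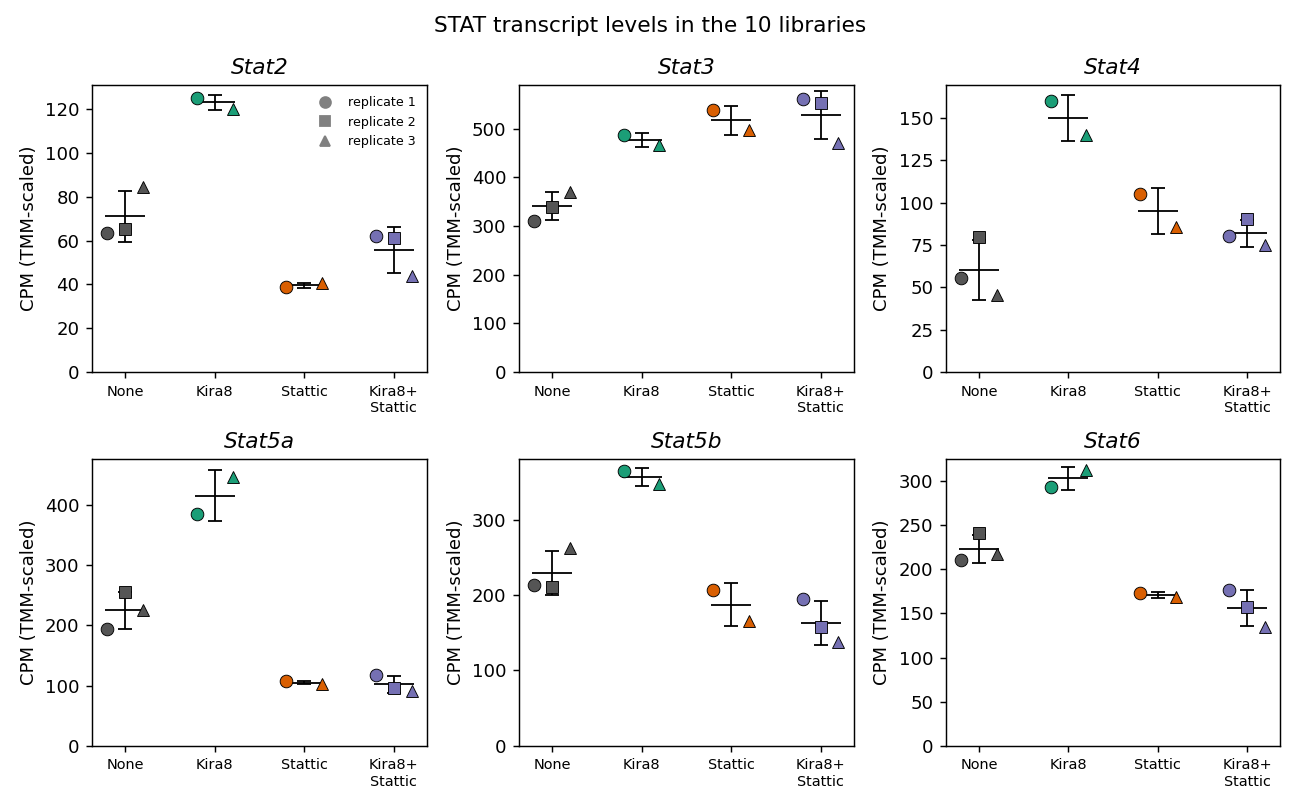
TMM-scaled CPM of each STAT gene (y axis, starting at 0) in the 10 libraries by group (x axis), with replicates marked by shape and horizontal bars for the mean ± SD. Stat3 is above None in every inhibitor group (471 to 560 CPM with both compounds against 311 to 369 CPM), whereas Stat5a is highest with Kira8 (386 and 446 CPM) and low in all 5 libraries with Stattic (91 to 118 CPM).

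Counted over the family, Kira8 against None had 5 members higher, 0 lower and 1 not called, against 19.3% of all genes called in either direction and 9.70% called higher and 9.59% lower. The groups did not overlap for any of the 6, nor for 47.8% of all genes tested. Stattic against None had 2 higher (Stat3 and Stat4), 2 lower (Stat2 and Stat5a) and 2 not called, against 39.0% of all genes called, 20.1% higher and 18.9% lower. Here too the groups were free of overlap for all 6, as for 58.3% of all genes. With so large a background, 4 of 6 says little about these genes in particular. Kira8+Stattic against None had 1 higher (Stat3), 3 lower (Stat5a, Stat5b and Stat6) and 2 not called, against 40.8% of all genes called, 20.8% higher and 20.0% lower. Its groups were free of overlap for 5 members and for 54.1% of all genes. These comparisons share the None libraries, so they are not independent of each other. In bulk RNA a change in the share of some cells and a change in RNA per cell cannot be told apart.

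The scaling of libraries moved some of these values. The median of all genes was 0.079 (log2) for Stattic against None with TMM and -0.077 by library size alone, and 0.121 and -0.001 for Kira8+Stattic against Kira8. No called member changed direction under either scaling, and the uncalled Stat3 difference between Stattic and Kira8 went from 0.12 to -0.02. By library size alone Stat4 was no longer called with Stattic (0.50, adjusted p = 0.0839), Stat3 no longer with Kira8 (0.46, adjusted p = 0.0567), Stat6 was called lower with Stattic (-0.54, adjusted p = 0.0232) and Stat2 lower with both (-0.50, adjusted p = 0.043).

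**Figure D2:**
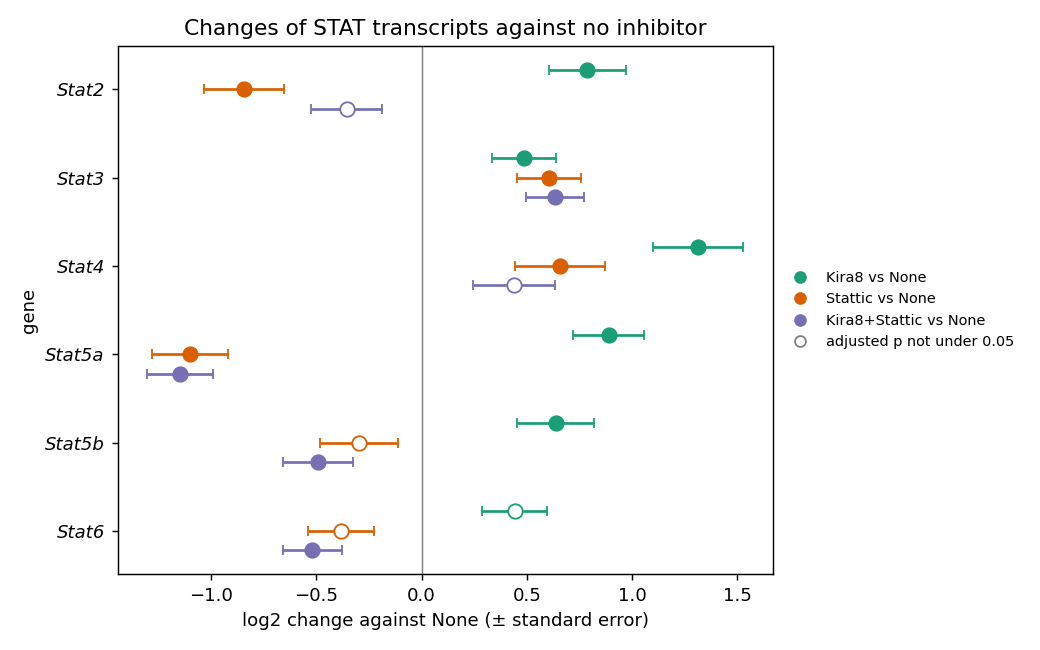
Log2 change against None ± standard error (x axis) of the 6 genes (y axis) for Kira8, Stattic and both compounds, from edgeR in the 10 libraries, with open points where the adjusted p was not under 0.05. All 6 Kira8 points lie above 0, while the Stattic points run from -1.10 for Stat5a to 0.66 for Stat4.

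The compounds were then compared directly. Stattic against Kira8 had 0 members higher, 4 lower and 2 not called, against 28.7% of all genes called and 15.1% called lower, and the groups did not overlap for any of the 6 or for 66.5% of all genes. The differences were -1.99 ± 0.20 for Stat5a (adjusted p = 5.86e-05), -1.63 ± 0.21 for Stat2 (0.000241), -0.93 ± 0.20 for Stat5b (0.00542) and -0.83 ± 0.17 for Stat6 (0.00393). Stat4 differed by -0.66 ± 0.24 and missed the threshold (adjusted p = 0.0575), and Stat3 by 0.12 ± 0.17 (adjusted p = 0.646). The Stat5b call ended without Stattic replicate 3 (adjusted p = 0.0543). Stat4 was called without any 1 of the None libraries (adjusted p 0.0176 to 0.048) and in DESeq2 (adjusted p = 0.0365).

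Adding Stattic to Kira8 lowered every member but Stat3. Of the 6, 5 fell, 0 rose and 1 was not called, against 30.7% of all genes called in either direction and 16.0% called lower. Beyond Stat5a, the falls were -1.14 ± 0.18 for Stat2 (adjusted p = 0.000712), -1.13 ± 0.18 for Stat5b (0.000752), -0.96 ± 0.15 for Stat6 (0.000676) and -0.87 ± 0.21 for Stat4 (0.00892). The Stat4 call ended without Kira8 replicate 1 (-0.78, adjusted p = 0.0799).

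Adding Kira8 to Stattic gave no call for any member. edgeR and DESeq2 both called 0 of the members, and edgeR called 0.0141% of all genes, 0.00942% higher and 0.00471% lower. Stat2 was the 1 member at an unadjusted edgeR p under 0.05 (0.49 ± 0.19, adjusted p = 1). The other 5 changes ran from -0.22 ± 0.22 for Stat4 to 0.03 ± 0.15 for Stat3, and their groups overlapped. The groups did not overlap for Stat2 and for 18.9% of all genes tested.

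The interaction asks whether the Kira8 change differed with and without Stattic. In the 10 libraries it was negative for all 6 members and passed for Stat4 (-1.53 ± 0.30, adjusted p = 0.0111) and Stat5a (-0.93 ± 0.24, adjusted p = 0.0344), against 8.52% of all genes called, 4.55% higher and 3.97% lower. For Stat4 the Kira8 change was 1.31 without Stattic and -0.22 with it, and for Stat5a 0.89 and -0.05. On the log2 scale the single-compound changes of Stat4 add up to 1.97, whereas the change with both was 0.44. For Stat5b the interaction was -0.83 ± 0.26 (adjusted p = 0.07), for Stat6 -0.58 ± 0.22 (0.127), for Stat3 -0.46 ± 0.21 (0.216) and for Stat2 -0.30 ± 0.26 (0.547). The Stat4 call ended without Kira8 replicate 1 (-1.43, adjusted p = 0.0617), and the Stat5a call without None replicate 3, either Kira8 library, either Stattic library, or Kira8+Stattic replicate 2 or 3 (adjusted p 0.0526 to 0.178).

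**Figure D3:**
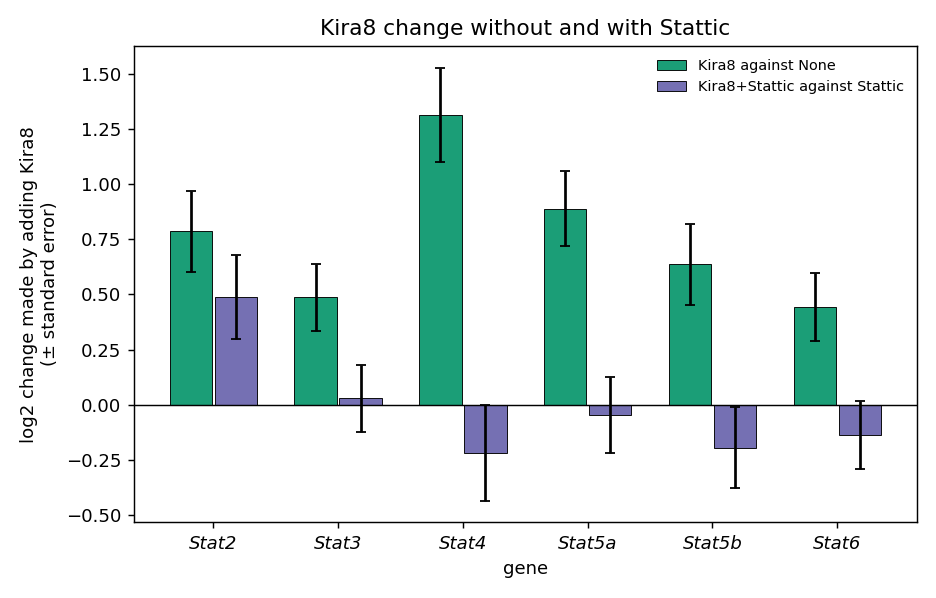
Log2 change made by adding Kira8 (y axis, ± standard error) to each STAT gene (x axis) in the absence of Stattic (Kira8 against None) and in its presence (Kira8+Stattic against Stattic). For Stat4 the bars stand at 1.31 and -0.22 and for Stat5a at 0.89 and -0.05.

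With all 12 libraries the member changes against None ran from -0.10 to 0.86 with Kira8 (lowest adjusted p = 0.637), from -1.68 to 0.16 with Stattic (0.291) and from -1.16 to 0.62 with both (0.696), all with standard errors of 0.64 to 1.07. edgeR called 0 members in any of the 7 comparisons, and an unadjusted p under 0.05 occurred for 2 members, Stat2 and Stat5a, in Stattic against Kira8 alone. The interaction there was positive for 5 of the 6 members (Stat2 0.58 ± 0.90, Stat3 0.51 ± 1.06, Stat5a 0.05 ± 1.2, Stat5b 0.27 ± 1.51 and Stat6 0.30 ± 1.02) and negative for Stat4 (-0.60 ± 0.97), each within its standard error. Over all genes it called 0 for Kira8 (2689 at an unadjusted p under 0.05), 0.310% for Stattic (0.105% higher) and 0.272% for both against None. limma voom on the same 12 libraries, with a quality weight per library (0.0763 for Kira8 replicate 2 and 0.0503 for Stattic replicate 2, against 0.84 to 2.70), called 3 members higher with Kira8 (Stat2, Stat4 and Stat5a; 22.3% of all genes called). It called 2 lower with Stattic (Stat2 and Stat5a; 37.1% of all genes called, 19.7% higher), and with both Stat3 higher and Stat5a and Stat6 lower (47.4%, 24.9% higher). There Stat4 also passed the interaction (-1.52 ± 0.33, adjusted p = 0.0123) and Stat5a did not (-0.87 ± 0.31, adjusted p = 0.108).

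Levels between genes were compared per kilobase of exon (RPKM from the TMM-scaled counts). In None Stat6 was highest at 50.7 ± 3.54 RPKM, followed by Stat5b (41.4 ± 5.29), Stat3 (35.7 ± 3.01), Stat5a (31.5 ± 4.33), Stat4 (15.6 ± 4.57) and Stat2 (12 ± 1.96). The mean ± SD ranges of neighbours in this order overlapped from Stat5b through Stat3 to Stat5a and between Stat4 and Stat2. With Kira8 Stat6 (68.8 ± 3.03) and Stat5b (64.4 ± 2.20) had the highest means, followed by Stat5a (58.3 ± 5.99). The mean ± SD ranges of neighbours overlapped here too. With Stattic Stat3 led at 54.2 ± 3.10 RPKM, ahead of Stat6 at 38.8 ± 0.726, and with both compounds at 55.3 ± 5.17 ahead of Stat6 at 35.4 ± 4.71.

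The share of Stat3 in the summed RPKM of the 6 separated libraries with and without Stattic. It was 19.1, 18.2 and 20% in None and 17 and 16.2% with Kira8. It was 31 and 31.8% with Stattic and 32.3, 34.3 and 34.3% with both. The difference was 12.3 percentage points without Kira8 and 17 with it, on average 14.7 (exact permutation test within Kira8 strata, two-sided p = 0.01, the smallest its 100 arrangements allow). A share also moves with the other members. The summed RPKM was 187 ± 13.4 in None and 173 ± 12.8 with Stattic, but 301 ± 1.25 with Kira8 and 165 ± 19.1 with both. Stat3 itself was not called in Kira8+Stattic against Kira8 (0.15 ± 0.15, edgeR adjusted p = 0.504). In all 12 libraries it was 11.9 points (exact p = 0.005), although Stattic replicate 2 alone had 20.4% and Kira8 replicate 2 21.9%.

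The ratio of Stat5a to Stat5b reads per kilobase needs no scaling between libraries. It was 0.704, 0.941 and 0.664 in None, 0.82 and 0.995 with Kira8, 0.401 and 0.481 with Stattic, and 0.47, 0.474 and 0.513 with both. Every library of the 10 with Stattic was below every library without. The log2 difference was -0.79 without Kira8 and -0.90 with it, on average -0.84 (exact permutation test within Kira8 strata, two-sided p = 0.01, the smallest possible). Kira8 replicate 2 (2.36) and Stattic replicate 2 (1.16, from 30 and 20 counts) lay above all other libraries. With these 2 included the average was -0.84 (exact p = 0.045), and -0.32 without Kira8 against -1.36 with it. Reads of the near-identical stretches can have been given to either gene. Benjamini-Hochberg adjustment over these 2 within-library measures leaves both exact p-values at 0.01.

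**Figure D4:**
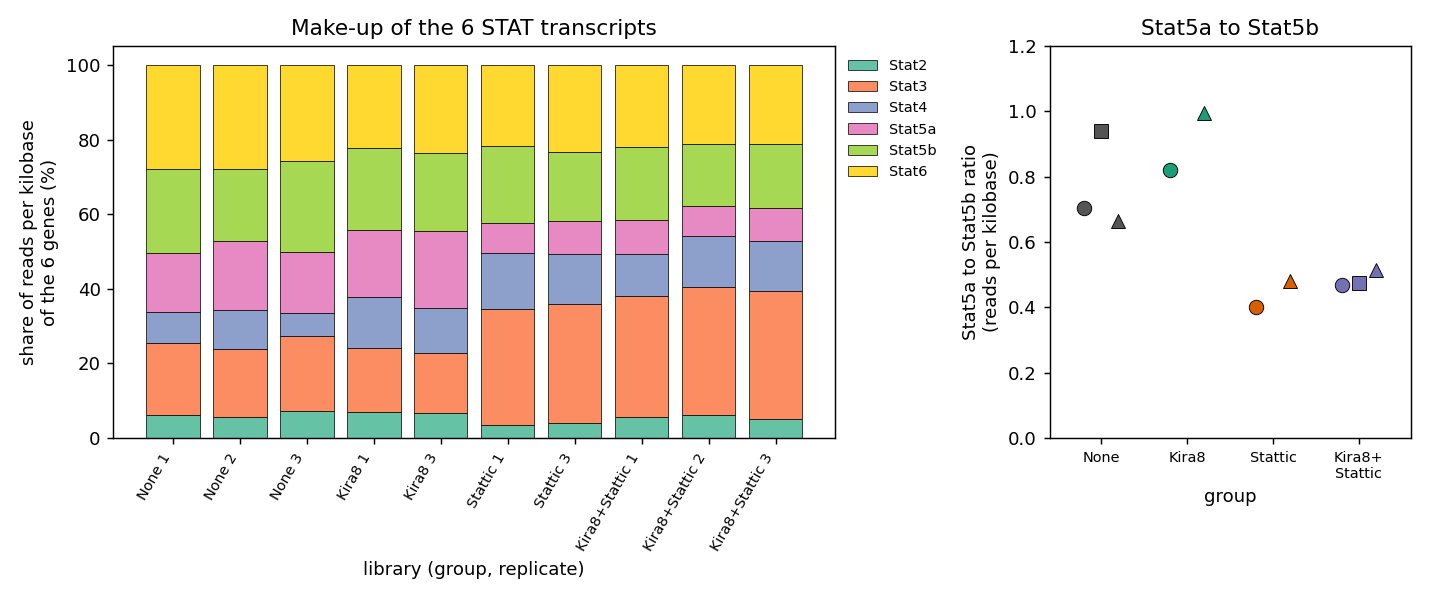
Left, share of each gene in the summed reads per kilobase of the 6 STAT genes (y axis, %) in each of the 10 libraries (x axis), and right, the Stat5a to Stat5b ratio by group with replicates marked by shape. Stat3 takes 16.2% to 20% in the 5 libraries without Stattic and 31% to 34.3% in the 5 with it, and the ratio is 0.664 to 0.995 without Stattic and 0.401 to 0.513 with it.

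Across the 10 libraries Stat5a, Stat5b, Stat6 and Stat2 varied together, with Pearson correlations of log2 CPM between 0.87 (Stat2 with Stat5b or Stat6) and 0.98 (Stat5a with Stat6). Stat3 correlated at 0.56 with Stat4 and at -0.43 to -0.18 with the other four. These correlations describe 10 points in 4 groups that share treatments. The genes most like Stat5a among 9658 were Birc3 (0.994), an inhibitor of apoptosis protein, Rfx5 (0.993), a regulator of MHC class II genes, and Zfp617 (0.992). Stat5b was most like Skiv2l (0.992), Tmem106b (0.987) and Adck2 (0.975), and Stat6 most like Nat2 (0.987), Abraxas2 (0.985) and Ppp1r16b (0.983). Stat2 was most like Exoc1 (0.982), Zfp90 (0.979) and Mbd1 (0.978). Stat3 was most like Tnrc6b (0.973), Cbarp (0.968) and Ndc80 (0.965), and Stat4 most like Tnfaip3 (0.967), which encodes the NF-kB inhibitor A20, Msl3 (0.965) and Cblb (0.959), a ubiquitin ligase that restrains T cell activation.

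Genes next to each other did not all change alike. Stat3 and Stat5a, whose ends meet, changed in opposite directions with Stattic (0.60 and -1.10). The nearest tested coding genes outside the chromosome 11 trio were Ghdc, not called in any comparison against None (0.38 ± 0.24, 0.35 ± 0.24 and 0.42 ± 0.22 with Kira8, Stattic and both), and Cavin1, a caveolae protein gene, which rose with Stattic (2.44 ± 0.86, adjusted p = 0.0399). Next to Stat2, Il23a, which encodes the p19 chain of IL-23, was not called with Kira8, Stattic or both (adjusted p = 0.243, 0.568 and 0.196).

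The sequences before the starts of the 5 members that fell when Stattic was added to Kira8, and of Stat3, which did not pass, are shown to compare their motifs. RefSeq (GRCm38.p6) gave 9 start sites for the 6 genes, and the 250 bases before each were searched on both strands for TTCNNNGAA (STAT site), a heat shock element (GAA, TTC and GAA with 2 free bases between each), an interferon response element (a pair of GAAA with 2 free bases between), CCAAT and GGGCGG (GC box). No window held a STAT site, which 7.02% of 32851 windows of the same length hold, or a heat shock element (0.466% of all). The interferon element occurred before Stat2, 222 bases from the start on the minus strand, and before the second Stat4 start, against 2.98% of all windows. No coding transcript of GENCODE M21 began exactly at either of these RefSeq starts, nor at the starts of Stat5b. CCAAT occurred in 3 of the 9 windows (33.8% of all) and GGGCGG in 4 (32.7% of all), and no matches overlapped. The windows are chr10:128270248-128270497 (plus) for Stat2, chr1:51986898-51987147 (plus) and chr1:52007990-52008239 (plus) for the starts of Stat4, chr11:100860234-100860483 (plus) for the second start of Stat5a, chr11:100850582-100850831 (minus) for the first start of Stat5b, chr10:127642736-127642985 (plus) for Stat6 and chr11:100939541-100939790 (minus) for Stat3. They are written 5′ to 3′ along the gene, with matches in capitals. The windows of Stat6, of the first start of Stat5a and of the second start of Stat5b held no match to any of the motifs.
Stat2: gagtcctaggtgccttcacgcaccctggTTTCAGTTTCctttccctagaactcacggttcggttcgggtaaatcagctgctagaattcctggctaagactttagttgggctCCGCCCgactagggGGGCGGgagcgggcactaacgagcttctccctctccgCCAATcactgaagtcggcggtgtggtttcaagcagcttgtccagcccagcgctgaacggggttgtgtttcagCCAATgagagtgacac
Stat4, start 1: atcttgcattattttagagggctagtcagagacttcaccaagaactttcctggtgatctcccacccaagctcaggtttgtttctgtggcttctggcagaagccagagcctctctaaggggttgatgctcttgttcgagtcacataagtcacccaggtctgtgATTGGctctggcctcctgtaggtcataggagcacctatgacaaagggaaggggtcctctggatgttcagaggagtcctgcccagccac
Stat4, start 2: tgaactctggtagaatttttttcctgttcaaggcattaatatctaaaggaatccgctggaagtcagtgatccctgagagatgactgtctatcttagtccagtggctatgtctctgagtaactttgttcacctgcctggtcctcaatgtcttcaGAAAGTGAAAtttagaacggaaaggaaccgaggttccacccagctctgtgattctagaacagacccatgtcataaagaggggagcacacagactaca
Stat5a, start 2: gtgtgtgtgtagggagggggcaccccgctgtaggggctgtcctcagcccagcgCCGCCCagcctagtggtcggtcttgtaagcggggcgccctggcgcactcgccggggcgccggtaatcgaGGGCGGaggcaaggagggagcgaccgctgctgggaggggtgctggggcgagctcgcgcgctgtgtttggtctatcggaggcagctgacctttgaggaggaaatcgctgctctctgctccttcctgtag
Stat5b, start 1: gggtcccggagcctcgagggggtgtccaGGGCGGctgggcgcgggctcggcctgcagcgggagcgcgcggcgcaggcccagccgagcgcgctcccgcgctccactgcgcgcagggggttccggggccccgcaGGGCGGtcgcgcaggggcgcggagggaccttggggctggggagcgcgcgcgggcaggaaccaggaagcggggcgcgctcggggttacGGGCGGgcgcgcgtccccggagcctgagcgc
Stat6: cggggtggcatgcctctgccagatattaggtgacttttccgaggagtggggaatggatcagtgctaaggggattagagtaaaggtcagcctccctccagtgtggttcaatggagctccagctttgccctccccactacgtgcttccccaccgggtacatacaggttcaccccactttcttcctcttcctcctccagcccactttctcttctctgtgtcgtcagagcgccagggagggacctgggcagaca
Stat3: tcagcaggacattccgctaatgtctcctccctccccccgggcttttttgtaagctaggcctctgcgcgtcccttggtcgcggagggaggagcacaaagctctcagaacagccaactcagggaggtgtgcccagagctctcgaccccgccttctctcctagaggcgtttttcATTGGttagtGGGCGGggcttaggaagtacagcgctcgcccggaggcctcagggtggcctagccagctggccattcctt

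The kinases that phosphorylate STAT proteins changed as well. Of 4 JAK genes 1 rose with Kira8, and 2 rose and 1 fell with Stattic, where 19.3% and 39.0% of all genes were called. Jak1 went from 338 ± 51.2 CPM in None to 734 ± 111 with Stattic (1.12 ± 0.18, adjusted p = 0.000507), and Tyk2 from 67.2 ± 9.80 to 33.5 ± 3.19 (-1.01 ± 0.22, adjusted p = 0.00351). Jak2 rose with Kira8 from 421 ± 156 to 1080 ± 24.8 CPM (1.36 ± 0.26, adjusted p = 0.00335), and Jak3 rose 1.51-fold with Stattic (adjusted p = 0.0239).

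Receptor chains that signal through JAKs went both ways, as did genes at large. Stattic gave 20.1% of all genes higher and 18.9% lower, and Kira8 9.70% higher and 9.59% lower. Of 18 chains, Kira8 gave 5 higher, 4 lower and 9 not called. Stattic gave 5 higher, 9 lower and 4 not called, with a median log2 change of -0.48 against 0.08 for all genes. Il6st, the gp130 chain shared by IL-6 family receptors, rose from 57.6 ± 17.4 to 322 ± 99.9 CPM with Stattic (2.48 ± 0.29, adjusted p = 5.36e-05). Il2ra, the high-affinity chain of the IL-2 receptor, fell from 2117 ± 304 to 370 ± 35.4 CPM (-2.52 ± 0.20, adjusted p = 4.51e-06). Il12rb1, shared by the IL-12 and IL-23 receptors, was lower with Kira8 (2.90-fold), Stattic (4.38-fold) and both (4.46-fold).

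Inhibitors of the pathway numbered 16. With Kira8 3 rose, 4 fell and 9 were not called, beside 19.3% of all genes called. With Stattic 2 rose, 5 fell and 9 were not called, near the share of all genes called (39.0%). Cish fell with Stattic from 451 ± 4.93 to 182 ± 1.84 CPM (adjusted p = 3.20e-05) but stayed at 480 ± 25.3 CPM with Kira8 (0.09 ± 0.14, adjusted p = 0.707). Socs1, a feedback inhibitor of JAKs, fell with Kira8 (2.76-fold) and Stattic (4.12-fold), and Pias3, an inhibitor of STAT3 DNA binding, rose with Kira8 (2.35-fold, adjusted p = 0.00109). Of 5 partners and coactivators 3 rose and 1 fell with Stattic, the acetyltransferase genes Crebbp (3.16-fold) and Ep300 (2.79-fold) and Ncoa1 (2.81-fold) being higher and Nmi lower (1.65-fold). Irf9, the partner of STAT2, was not called with Kira8, Stattic or both (adjusted p = 0.0873, 0.558 and 0.1).

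Target genes were counted factor by factor. These lists rest on textbook knowledge of other settings, and several targets answer other factors as well. Of 10 STAT5 targets 1 rose and 9 fell with Stattic, with a median of -1.68 against 0.08 for all genes and 18.9% of all genes called lower. With both compounds again 1 rose and 9 fell, where 20.0% of all genes were called lower. Kira8, with which Stat5a and Stat5b transcripts were higher, gave 1 higher, 4 lower and 5 not called. Over all genes Kira8 gave 9.70% higher and 9.59% lower. Among the falls with Stattic were Ccnd2, a D-type cyclin (4.13-fold), and the cytokine Osm (4.34-fold). Among 16 genes listed as STAT3 targets, Stattic raised 3, lowered 9 and left 4 not called (median -0.57), with Ahr 6.13-fold higher and Il21 2.86-fold lower, while Kira8 gave 4 higher, 5 lower and 7 not called (median 0.16).

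The STAT4 list had 0 members higher, 4 lower and 4 not called of 8 with Kira8 (median -0.59), where 9.59% of all genes were called lower. Tbx21, the Th1 lineage factor, was 4.14-fold lower with Kira8 and 5.64-fold lower with Stattic. Of 7 STAT6 targets 3 fell and 4 were not called with Kira8. With Stattic 1 rose, 3 fell and 3 were not called, beside 20.1% of all genes called higher and 18.9% lower. There Ccr4, a chemokine receptor of Th2 and Th17 cells, was 3.56-fold lower. Of 12 targets of the STAT2 and IRF9 complex edgeR called 0 with Kira8, beside 19.3% of all genes. Of these 12, 2 had an unadjusted p under 0.05. Stattic gave 3 higher, 4 lower and 5 not called, beside 20.1% of all genes higher and 18.9% lower. The antiviral gene Rsad2 rose 12.2-fold with Stattic, from 0.576 ± 0.169 to 7.07 ± 0.125 CPM, whereas Usp18, a feedback inhibitor of interferon signalling, fell 3.73-fold, so the list did not move one way. With all 12 libraries edgeR called 1 gene of these lists, in the STAT4 list, with Stattic and with both against None, and 0 with Kira8.

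Of the 9 Th17 markers 1 rose and 2 fell with Kira8 (19.3% of all genes called). With Stattic 2 rose and 4 fell (39.0%), and with both 2 rose and 5 fell (40.8%). Markers of other cells moved between the groups as well. The summed CPM of 14 CD8 T and NK cell markers was 1238 to 2127 in None, 204 to 226 with Kira8, 611 to 775 with Stattic and 240 to 361 with both. Gzmb was the largest single part of this sum in every group. It had 1026 ± 317 CPM in None, 84.8 ± 1.06 with Kira8, 381 ± 38.8 with Stattic and 126 ± 30.5 with both. Of 13 tested 9 fell with Kira8, and 5 fell and 1 rose with Stattic, beside 19.3% and 39.0% of all genes called. The 13 B cell markers summed to 338 to 422 CPM in None, 177 to 208 with Kira8, 74.9 to 142 with Stattic and 77 to 142 with both, and 6 fell with Kira8 and 11 with Stattic. The 8 T cell genes summed to 2743 to 3259 CPM in None, 2311 to 2526 with Kira8 and 2846 to 3477 with Stattic. The 12 myeloid markers summed to 38.4 to 58.4 CPM in None, 65.8 to 67.6 with Kira8, 36.4 to 52 with Stattic and 23.5 to 110 with both. Among 11 tested 1 fell with Kira8, and 2 rose and 1 fell with Stattic, beside 19.3% and 39.0% of all genes called. Ncr1, an NK cell receptor, was barely detected in None (0.0336 ± 0.0582 CPM) and was at 0 in the other groups. The part of these cells in the STAT changes was not tested.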

How the data were processed

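The deposited table holds raw read counts per Ensembl gene, whole numbers made by the authors from sequencing of total RNA, for 12 libraries of 4 groups. Reads were mapped to mm10, per the submitters' processing notes; how they were aligned and counted, with which annotation and strand setting, is not given in the sources used here. Columns were matched to samples by title, and symbols and positions came from GENCODE M21 (55141 of 55401 identifiers). Exon-union lengths served for RPKM. Total counts ranged from 9.3 to 85.9 M, so that 3 counts correspond to 0.0349 to 0.323 CPM (counting error only). No library pair within a group agreed within sampling noise (lowest chi-square per gene 30.0, Kira8 replicates 1 and 3).

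The counts were filtered by filterByExpr, scaled by TMM and tested with edgeR 4.0.16 (glmQLFit, glmQLFTest) in a single fit over all genes with a coefficient per group, in 7 comparisons. Calls were made at 0.05 after Benjamini-Hochberg adjustment across every tested gene (21239 with 10 libraries, 20993 with 12). The standard error is the log2 change divided by the square root of F. The members, the lists, the tests and the choice of the 10 libraries were made with earlier results of these data known. Genes named are the 6 members, up to 4 per pathway list with the smallest adjusted p against None, the 3 genes most like each member, the nearest coding neighbours, and a few further list members and markers chosen after their values were seen. Some genes meeting these rules are not reported here. Alternatives were DESeq2 1.42.0, limma 3.58.1 voom with quality weights, RLE factors, library size alone, no filter, the replicate block, all 12 libraries, and leaving out each library. The tests were tried on simulated counts.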

Additional observations from a re-analysis of the deposited data

Results flagged for a closer look

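The change of Stat4 with Kira8 was smaller in the presence of Stattic by a log2 difference of -1.53 (edgeR interaction, adjusted p = 0.0111), and that of Stat5a by -0.93 (adjusted p = 0.0344). Both were picked out because the effect of Kira8 differed between cells with and without Stattic, by a test of that difference. In all 12 libraries the differences were -0.60 (adjusted p = 0.842) and 0.05 (adjusted p = 0.996).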

How the results depend on the processing

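Of 42 member results (6 genes in 7 comparisons, 24 of them called), 42 kept their call and direction with RLE factors, 41 without a filter, 37 with DESeq2, 36 with library size alone and 35 with weighted voom. With all 12 libraries 9 did. All 24 calls were lost there, and 10 results changed sign, 1 of them called in the 10 libraries (the Stat5a interaction, 0.05) and 9 not called in either (the cause was not tested). Counts of genes called moved there from 4097 to 0 (Kira8), 8281 to 65 (Stattic) and 8676 to 57 (both) against None, from 6514 to 0 (Kira8+Stattic against Kira8), 3 to 0 (Kira8+Stattic against Stattic), 6106 to 0 (Stattic against Kira8) and 1810 to 0 (interaction), with 1050 to 4110 genes at an unadjusted edgeR p under 0.05. Kira8+Stattic against Stattic gave 51 with DESeq2, 5 without a filter and 0 with weighted voom, and the interaction 3119 with DESeq2. Leaving out each library of the 10 gave 1642 to 4118 genes for Kira8 and 5534 to 8649 for Stattic against None, 3270 to 7457 for Kira8+Stattic against Kira8, 1 to 15 against Stattic, 3180 to 7073 for Stattic against Kira8 and 498 to 2066 for the interaction. The lowest counts came without Kira8 replicate 3 (1642, 3270 and 3180), Kira8 replicate 1 (498) or Stattic replicate 3 (5534 and 1). With 1 library left in a group, it is assumed to vary like the others.

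The labels do not say what a replicate number shares, and not every same-numbered pair deviated together, so the samples were not treated as paired. Deviations of the 13 same-numbered pairs correlated at -0.01 to 0.21, with 7 above 0.1. As a hint from the data, 9 of 10 libraries correlated best with their own number. With the replicate block 40 of 42 member results were unchanged, Stat4 was also called with both compounds (0.47, edgeR adjusted p = 0.0166) and lower with Stattic than Kira8 (-0.66, adjusted p = 0.0128). The block gave 4423, 8062 and 8947 genes against None for Kira8, Stattic and both, 6660 and 4 for Kira8+Stattic against Kira8 and against Stattic, 6519 for Stattic against Kira8 and 1784 for the interaction.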
